A study of Mus musculus with 8 samples.

Results

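The 9 genes described here are Gata1, Ppm1l, Trpm1, Zfp608, Tlr7, Tcf7l2, C1ql3, Tnnt2 and Adamts3. They were chosen from the measured values because their signal in regulatory T (Treg) cells and in CD44hi cells moved in opposite directions from naive cells. They are 9 of the 27670 gene names on the array and were read by 21 of its 41174 probes. Of these genes, 8 had a higher signal in Treg and a lower one in CD44hi than in naive cells, and 1, Adamts3, the reverse.

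The samples were CD4+ T cells from male C57BL/6 mice aged 15 weeks, whose spleen and lymph nodes were pooled before sorting. The 4 sorted groups were labelled naive, CD44lo, CD44hi or Treg and had 2 arrays each. The series title names the mice as Ox40-cre/ROSA-YFP, a reporter in which cells that have transcribed Ox40 (Tnfrsf4, a co-stimulatory receptor induced on activated T cells and present on regulatory T cells) are marked permanently by yellow fluorescent protein. All 4 groups thus carry these alleles. The labels do not say which groups were sorted as YFP-positive, which markers were used beyond the group names, or whether the 2 samples of a group came from separate animals, so the spread between them may be technical. RNA was amplified by a linear low-input method, labelled with Cy3 and hybridised to Agilent 1-colour arrays on 2 slides, each slide holding 1 array of every group.

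Naive CD4+ T cells circulate through lymphoid organs and have not met antigen. CD44 is an adhesion receptor that rises on T cells after antigen, so CD44hi cells are mostly effector and memory cells. Treg cells depend on the transcription factor Foxp3 and restrain immune responses. The 9 genes belong to no common pathway. Gata1, Tcf7l2 and Zfp608 encode nuclear proteins, Tlr7 and Trpm1 a receptor and an ion channel, Ppm1l a protein phosphatase, Adamts3 and C1ql3 secreted proteins, and Tnnt2 a muscle protein.

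The share of probes well above background was between 59.2% and 68.8% on the 8 arrays, lowest on the naive replicate 2 array, whose 75th percentile signal was 639 against 991 to 1337 on the others. Signals are given as a percent of the 75th percentile of all probes on the same array, and differences on the log2 scale. All 8 regulatory T cell markers, Foxp3 among them, were higher in Treg than in naive cells, Foxp3 by 7.77 on the log2 scale (SE 0.28, adjusted p = 2.46e-05), and Cd44 was higher in CD44hi by 2.12 (SE 0.19, adjusted p = 0.000383). Calls against naive did not separate the groups: 7 of these 8 were also higher in CD44lo and 6 in CD44hi. Of 8 effector memory markers, 8 were higher in CD44hi, 7 in Treg and 6 in CD44lo. The regulatory markers summed to 18810% to 20390% on Treg arrays and at most 8310% on others. Effector memory markers summed to 27290% to 31580% on CD44hi arrays and at most 8718% on others. Foxp3 was also above naive in CD44lo cells, by 5.64, and in CD44hi cells, by 4.88. All 9 general CD4 T cell markers were well above background on every array. Each group is a bulk sample, so fewer cells with a transcript and less transcript per cell cannot be told apart.

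**Figure D1:**
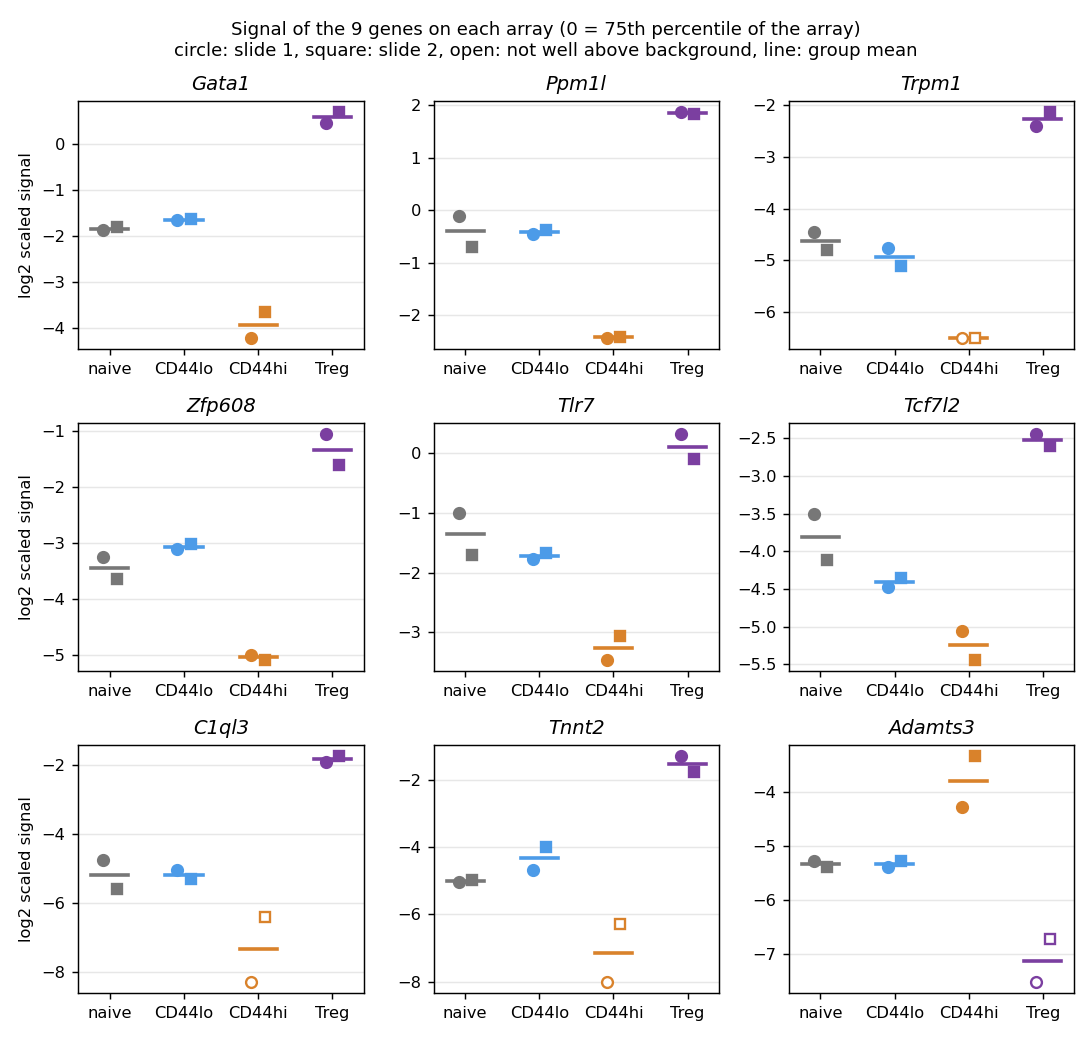
Log2 signal of the brightest probe of each of the 9 genes on each of the 8 arrays, by group, with 0 at the 75th percentile of the array; circles are slide 1, squares slide 2, open symbols were not well above background, and lines are means of 2 arrays. In 8 panels the Treg arrays are highest and the CD44hi arrays lowest, with naive and CD44lo between; in the Adamts3 panel CD44hi is highest and Treg lowest.

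Among all 17996 genes tested, 71 (0.395%) were called against naive in both groups in opposite directions, that is, with an adjusted p under 0.05 in limma for both. Of these, 45 (0.25%) were higher in Treg and lower in CD44hi, and 26 (0.144%) the reverse. Both comparisons share the naive arrays and the 9 genes were chosen on them, so their Treg and CD44hi differences are descriptions with no test. When the 45 genes were ordered by the smaller of their 2 absolute log2 differences, the 5 members measured above background in all 4 groups ran from Gata1 at 2.09, Ppm1l at 2.02, Zfp608 at 1.60 and Tlr7 at 1.46 to Tcf7l2 at 1.29. C1ql3, Tnnt2 and Trpm1 were not well above background on either CD44hi array, so their smaller difference has only a lower bound, 1.11 for C1ql3, 1.28 for Tnnt2 and 1.66 for Trpm1, and their places in the order are not settled. The rule has no numeric limit, and the first genes outside the members in that order were Wfdc2, a secreted protease-inhibitor-like protein, at 1.28 and Car11, a carbonic anhydrase-related protein, at 1.21. Wfdc2 was also called in CD44lo cells, where it was higher than naive by 1.77 (adjusted p = 0.00562). Among the 26 genes of the reverse direction, Adamts3 had a CD44hi difference of 1.52 and a Treg difference bounded at 1.32 or more below naive. Ifitm10, a member of the interferon-induced transmembrane family, had a smaller difference of 1.71, and the transcript AK079064 one of 1.65, but the latter was not well above background on any naive or Treg array. Cyp2ab1, a cytochrome P450 gene, had 1.43, but was well above background on 1 naive array and no CD44lo or Treg array. It was also called in CD44lo cells, with a limma difference of -2.20 from naive (adjusted p = 0.0169). The transcript ENSMUST00000050829 had 1.33. The count of 71 moved with single arrays. It was 121 without naive replicate 1 and 83 without naive replicate 2, and between 32 and 39 without any 1 of the 6 arrays of the other groups, with 32 without Treg replicate 1. With no filter on dim probes it was 28.

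**Figure D2:**
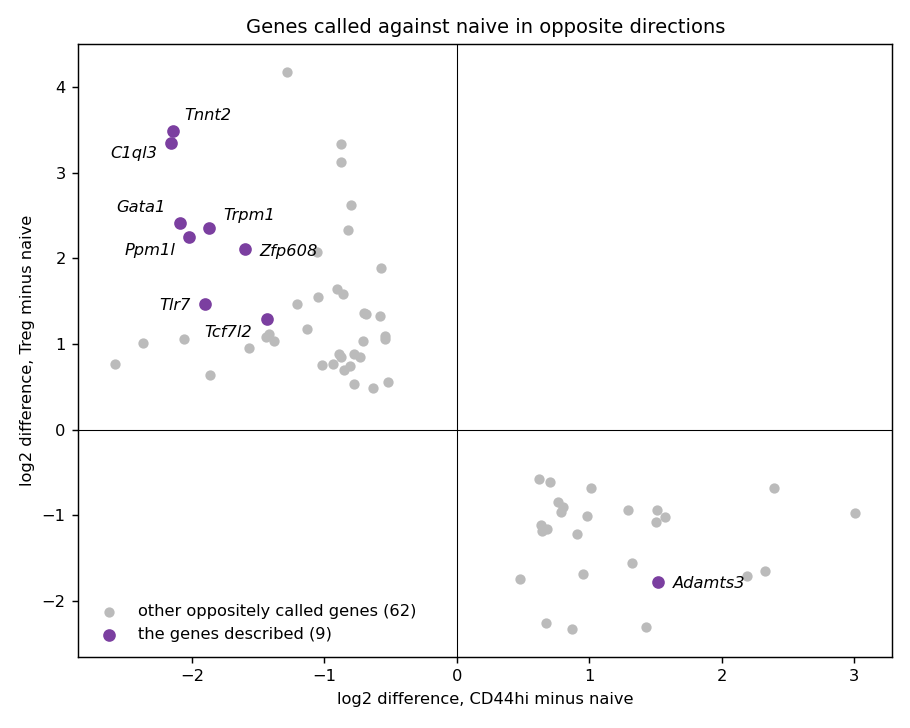
Log2 difference from naive in CD44hi cells (x axis) against that in Treg cells (y axis) for the 71 genes called in opposite directions, with the 9 described genes in purple. Both axes share the 2 naive arrays. C1ql3 and Tnnt2 lie above 3 on the Treg axis. Points of genes not well above background in 1 group (C1ql3, Tnnt2 and Trpm1 in CD44hi, Adamts3 in Treg) show estimates whose position on that axis is only a bound.

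Gata1 encodes the zinc-finger factor that binds GATA motifs and drives erythroid and megakaryocyte differentiation, and it is also used by mast cells and eosinophils. Its signal was 28.7% and 27.2% of the 75th percentile on the naive arrays, 32.0% and 31.9% on the CD44lo arrays, 5.38% and 8.00% on the CD44hi arrays, and 137% and 161% on the Treg arrays. Treg arrays were thus the highest and CD44hi arrays the lowest, with no overlap with naive, and every array was well above background. Treg stood 5.33-fold above naive (log2 difference 2.41, SE 0.21) and CD44hi 4.25-fold below it (log2 difference -2.09, SE 0.21), so that Treg exceeded CD44hi 22.7-fold. Within each slide the Treg difference was 2.34 and 2.49, and the CD44hi difference -2.34 and -1.84. The Gata1 probe, on the minus strand at chrX:6392873-6392932 of mm7, the mouse build named in the array files, was printed as 10 spots per array, of which 8 were kept on the CD44hi replicate 1 array. The SD between these spots of 1 array, a measure of technical noise within the array only, was 0.02 to 0.13 on the log2 scale.

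Tcf7l2 encodes a high-mobility-group transcription factor that pairs with beta-catenin at Wnt target genes. Its signal was 5.79% and 8.79% on the naive arrays, 4.88% and 4.51% on the CD44lo arrays, 3.02% and 2.31% on the CD44hi arrays, and 18.4% and 16.5% on the Treg arrays. Treg was highest and CD44hi lowest, and the CD44lo arrays lay between CD44hi and naive without overlapping either. Treg was 2.44-fold above naive and CD44hi 2.70-fold below it. The Treg log2 difference of 1.29 was 0.56 with normexp background correction, 0.76 in the authors' deposited values and 0.80 with the mean of its probes, and the CD44hi difference of -1.43 was -0.85, -0.89 and -0.39. Zfp608, a zinc-finger protein related to Zfp609, gave 8.03% and 10.6% in naive, 12.4% and 11.5% in CD44lo, 3.13% and 2.94% in CD44hi, and 48.3% and 32.8% in Treg cells. The CD44lo arrays stood just above the naive ones. Its Treg signal was 4.32-fold above naive and its CD44hi signal 3.04-fold below. With normexp the log2 differences were 1.41 and -0.98, against 2.11 and -1.60, and with the mean of its probes the CD44hi difference was -0.69.

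Tlr7 encodes the endosomal receptor for RNA that signals through Myd88, best known in plasmacytoid dendritic cells and B cells. Its signal was 30.8% and 49.6% on the naive arrays, 31.5% and 29.1% on the CD44lo arrays, 9.11% and 12.1% on the CD44hi arrays, and 124% and 93.0% on the Treg arrays. The naive arrays differed from each other more than the CD44lo arrays did, and the CD44lo range reached into the naive one. Treg was 2.75-fold above and CD44hi 3.73-fold below naive. Within slides the Treg difference was 1.33 and 1.60, and the CD44hi difference -2.44 and -1.35. The probe lies on the minus strand at chrX:162079619-162079678 of mm7.

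Trpm1 encodes a cation channel of retinal bipolar cells and melanocytes, where the factor Mitf drives its transcription. The signal was 3.59% and 4.56% in naive, 2.90% and 3.70% in CD44lo, 1.11% and 1.10% in CD44hi, and 18.9% and 22.8% in Treg cells. Neither CD44hi array was well above background, so that side has only a bound: naive exceeded CD44hi at least 3.15-fold and Treg exceeded CD44hi at least 16.2-fold. Such bounds set the group mean against the higher, on each dim array, of the probe's own signal and the lowest signal of any probe well above background. They hold only for the signals as processed here. Treg was 5.13-fold above naive, where all 4 arrays were above background. This log2 difference of 2.36 was 1.07 with normexp, 1.29 in the authors' deposited values and 0.89 with the mean of its probes. The CD44hi difference from naive, estimated at -1.87, ranged from -2.67 to -0.705 over 17 alternatives.

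Ppm1l encodes a PP2C-type serine/threonine phosphatase of the endoplasmic reticulum membrane that acts on stress-activated kinase pathways. Its signal was 61.7% and 92.5% on the naive arrays, 76.9% and 73.5% on the CD44lo arrays, 18.5% and 18.8% on the CD44hi arrays, and 365% and 354% on the Treg arrays. The CD44hi arrays were close to each other, as were the Treg arrays, and both pairs lay far outside the naive range. Treg was 4.76-fold above naive and CD44hi 4.05-fold below, and Treg exceeded CD44hi 19.3-fold. With the mean of its probes the CD44hi log2 difference was -0.95, against -2.02. The brightest probe lies on the plus strand at chr3:69661691-69661750 of mm7.

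C1ql3 encodes a secreted protein with a C1q domain that binds the adhesion receptor Adgrb3 at synapses. Its brightest probe lies on the strand opposite to that of the gene, and which transcript it reads was not tested. That probe gave 2.06% and 3.74% in naive, 2.54% and 3.05% in CD44lo, 0.325% and 1.20% in CD44hi, and 26.4% and 30.1% in Treg cells. Neither CD44hi array was well above background. Treg was 10.1-fold above naive, and naive exceeded CD44hi at least 2.16-fold. The Treg log2 difference of 3.34 was 1.73 with normexp and 1.97 in the authors' deposited values. The CD44hi difference, estimated at -2.15, was -0.74 and -0.65 there and -1.21 without CD44hi replicate 1, and it met the call threshold in 8 of 17 alternatives. Tnnt2, the cardiac form of troponin T in the thin filament of muscle, gave 3.16% and 3.07% in naive, 6.31% and 3.94% in CD44lo, 0.391% and 1.28% in CD44hi, and 41.1% and 29.5% in Treg cells. Again the CD44hi arrays were not well above background and the Treg arrays were the highest. Treg was 11.2-fold above naive, naive exceeded CD44hi at least 2.42-fold, and Treg exceeded CD44hi at least 27.1-fold. The Treg log2 difference of 3.48 was 1.92 with normexp and 2.27 in the authors' deposited values. The CD44hi difference, estimated at -2.14, was -0.89 and -0.68 there, -1.29 without CD44hi replicate 1 and -0.64 with the mean of its probes, and it met the call threshold in 11 of 17 alternatives.

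Adamts3 encodes a secreted metalloprotease that removes the amino-terminal propeptide of procollagen and takes part in the maturation of the lymphatic growth factor Vegfc. Its signal was 2.39% and 2.59% in naive, 2.57% and 2.40% in CD44lo, 5.15% and 9.90% in CD44hi, and 0.552% and 0.946% in Treg cells. Here CD44hi was highest, and the Treg arrays were not well above background. CD44hi was 2.87-fold above naive, naive exceeded Treg at least 2.49-fold and CD44hi exceeded Treg at least 7.16-fold. The CD44hi log2 difference of 1.52 was 0.20 with normexp and 0.65 in the authors' deposited values, and it met the call threshold in 11 of 17 alternatives. It was 1.05 without CD44hi replicate 2, 1.46 without naive replicate 1 and 1.58 without naive replicate 2, and missed the threshold in each. The Treg difference, estimated at -1.78, was -0.83 with normexp and -0.36 in the authors' deposited values, and met the threshold in 13 of 17. The brightest probe lies on the minus strand at chr5:89807975-89808034 of mm7.

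CD44lo against naive is the comparison that did not choose these genes, although it shares the naive arrays with the 2 that did. In limma 0 of the 9 genes were called, against 952 of the 17996 genes tested (5.29%), and 1 of the 9, Tcf7l2, had an unadjusted p under 0.05, against 3539 of all genes (19.7%). Tcf7l2 was lower in CD44lo by 0.60 (95% interval -1.18 to -0.03, adjusted p = 0.243), on both slides. For Gata1 the difference was 0.20 (-0.32 to 0.71, adjusted p = 0.586) and for Ppm1l -0.0071 (-0.50 to 0.49, adjusted p = 0.985). These intervals exclude a shift in CD44lo as large as either the Treg or the CD44hi difference of these genes. C1ql3 had the widest interval, from -1.41 to 1.41 around 0.0017, and Tnnt2 the largest estimate, 0.68 (-0.61 to 1.97, adjusted p = 0.461). Of the 9 genes 5 had a higher and the other 4 a lower CD44lo mean. Their median difference was 0.0004, against -0.13 over all genes tested. The naive and CD44lo arrays overlapped for 5 of the 9, a share that was not counted over all genes. In the order of the levels, naive and CD44lo were neighbours for all 9 genes. The choice of the genes put naive between Treg and CD44hi, so this order was largely fixed in advance and shows nothing further. No difference between naive and CD44lo passed the adjusted threshold, and with 5.29% of all genes called, 0 of 9 does not set these genes apart.

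The number of genes called in CD44lo against naive moved with single arrays of either group. Without naive replicate 1 limma called 7191 genes in CD44lo against naive, among them Tcf7l2, lower by 0.90 (adjusted p = 0.0241). Without CD44lo replicate 2 it called 506. Of the 952 genes 815 were higher (4.53% of those tested) and 137 lower (0.761%) in CD44lo. With normexp background correction the split was 486 higher and 173 lower, and in the authors' deposited values 726 and 307.

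**Figure D3:**
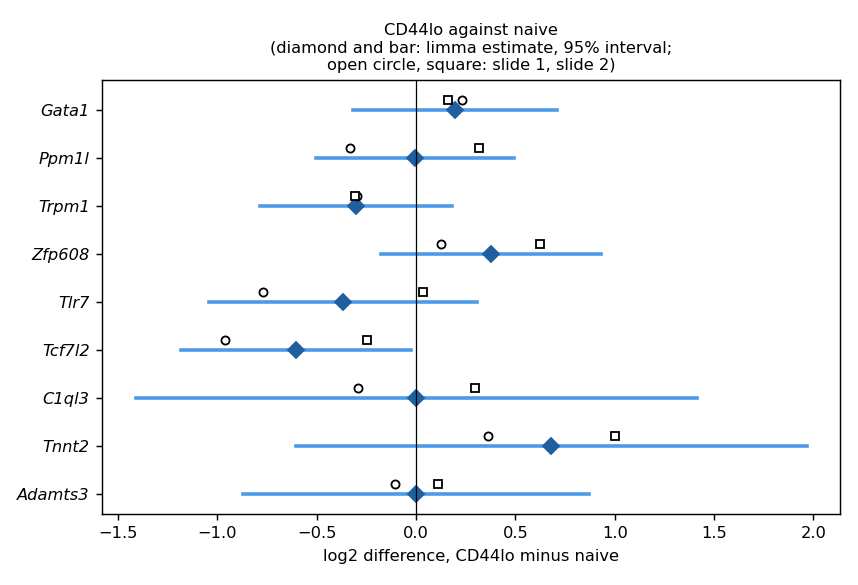
Log2 difference of CD44lo minus naive for the 9 genes: diamonds and bars are limma estimates with 95% intervals from all 8 arrays, and open symbols the differences within slide 1 (circle) and slide 2 (square). Only the Tcf7l2 interval lies wholly below 0, and its adjusted p is 0.243.

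Gata1 and Tlr7 have 1 probe each, and the other 7 genes have 12 further probes. Of these 12, 11 had the same sign as the brightest probe of their gene in Treg, 9 in CD44hi and 8 in both. Among the 8 that passed the filter on dim probes, the counts were 8, 5 and 5. Several of these probes were near background, so that their differences are estimates with no firm size. Ppm1l shows both outcomes. A probe 5.67 kb away gave 2.06 in Treg and -1.44 in CD44hi, while a dim probe 37.1 kb away gave 2.11 in Treg and 0.61 in CD44hi, and was above background on neither naive array. For Zfp608 the further probes gave 2.03 and 3.43 in Treg but -0.47 and -0.02 in CD44hi. Both were above background on 1 naive array, the first on 1 and the second on no CD44hi array. The further probe of Tnnt2 gave 2.93 in Treg and 0.86 in CD44hi, and was above background on no naive array and 1 CD44hi array. For Tcf7l2 a probe 24.6 kb upstream on the same strand gave 0.62 in Treg and 0.22 in CD44hi. An Adamts3 probe 160 kb from the brightest one gave -2.45 in Treg and 1.79 in CD44hi, but was above background on no Treg and 1 naive array. The last Adamts3 probe was above background on 1 CD44hi array and no naive or Treg array, and its naive and CD44hi arrays overlapped.

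**Figure D4:**
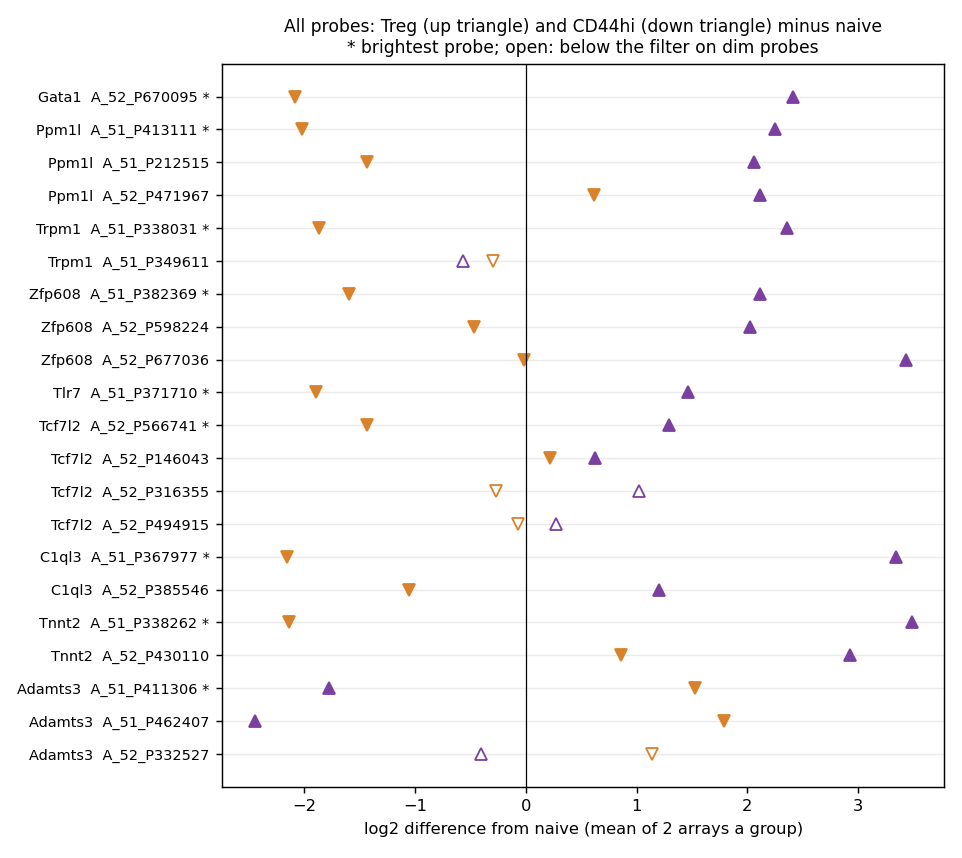
Log2 difference from naive in Treg (up triangles) and CD44hi (down triangles) for all 21 probes of the 9 genes; asterisks mark the brightest probe of a gene, and open symbols are probes that did not pass the filter on dim probes. The Treg triangles of the first 8 genes lie right of 0 except for 1 dim Trpm1 probe, whereas the CD44hi triangles of Ppm1l, Zfp608, Tcf7l2 and Tnnt2 spread across or up to 0.

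The sequences of 3 probes are shown because they bear on how far the probes of a gene agree. The Tnnt2 probe that carries the pattern lies at chr1:135737607-135737919 of mm7, plus strand, and it covers a span of 313 genomic bases. The Ppm1l probe that differs in CD44hi lies at chr3:69598895-69650334, plus strand, across 51440 bases, and the Tcf7l2 probe that differs lies at chr19:55823461-55823520, plus strand. The sequences are those of the array files, written 5′ to 3′.
Tnnt2 A_51_P338262: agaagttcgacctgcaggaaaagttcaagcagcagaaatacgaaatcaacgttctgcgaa
Ppm1l A_52_P471967: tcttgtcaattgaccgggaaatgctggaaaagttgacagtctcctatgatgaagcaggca
Tcf7l2 A_52_P146043: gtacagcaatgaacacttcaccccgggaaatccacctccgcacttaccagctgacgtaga
The brightest C1ql3 probe needs a separate word. It was designed on the transcript AK053854 and lies on the plus strand at chr2:12951322-12951381 of mm7, whereas the further probe, designed on the reference transcript NM_153155, lies on the minus strand 8.07 kb away. The latter gave 1.20 in Treg and -1.06 in CD44hi and was not above background in CD44hi. RefSeq places the C1ql3 gene on the minus strand, so the brighter probe lies on the strand opposite to the gene. Which transcript it reads was not tested.

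The promoters were searched because the genes move together and a GATA factor and a TCF factor are among them. Windows from RefSeq (GRCm38.p6), from 250 bases before to 50 after a start, were searched for 6 of the 9 genes, 9 windows in all. Ppm1l and Tlr7 had no entry in the promoter sequences used, and Zfp608 was left out of the search. The counts that follow therefore do not cover Ppm1l, Tlr7 or Zfp608. The motif searched for GATA factors, with the letters AGATAA, was present on either strand in 3 of the 9 windows, against 11.2% of 32841 such windows of all genes. CTTTGA, a TCF/LEF-type motif, was present in 2 windows, both of Trpm1, against 16.0%, and TGTTTAC, a forkhead-type motif, in none, against 3.65%. The 250 bases before the start are shown for the 3 windows that hold the GATA-type letters, all on the plus strand. Capitals mark the GATA-type letters, here read on the opposite strand, and in Trpm1 also the TCF/LEF-type letters, likewise read on the opposite strand. The windows are chr1:135836084-135836333 (Tnnt2), chr7:64153585-64153834 (Trpm1) and chr19:55895071-55895320 (an internal start of Tcf7l2).
Tnnt2: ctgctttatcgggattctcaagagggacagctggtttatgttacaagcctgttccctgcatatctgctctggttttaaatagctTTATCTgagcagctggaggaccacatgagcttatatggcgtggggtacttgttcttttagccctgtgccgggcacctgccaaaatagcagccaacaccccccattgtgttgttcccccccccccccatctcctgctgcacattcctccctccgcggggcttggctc
Trpm1: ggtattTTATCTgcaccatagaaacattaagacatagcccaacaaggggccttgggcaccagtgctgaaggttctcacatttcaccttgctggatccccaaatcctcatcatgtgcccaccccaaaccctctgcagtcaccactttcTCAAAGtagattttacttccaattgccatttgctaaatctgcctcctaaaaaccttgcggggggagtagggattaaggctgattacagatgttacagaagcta
Tcf7l2: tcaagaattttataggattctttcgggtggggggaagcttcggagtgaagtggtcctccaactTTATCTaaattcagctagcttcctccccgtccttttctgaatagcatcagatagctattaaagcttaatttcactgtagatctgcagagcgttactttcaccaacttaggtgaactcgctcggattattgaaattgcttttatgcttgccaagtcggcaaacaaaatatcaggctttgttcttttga
A match describes letters in a window and shows no binding, and with so few windows the shares are descriptions. The Gata1, C1ql3 and Adamts3 windows held none of the 3 motifs.

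The other genes of each pathway were followed in lists chosen with earlier results of these data known, and tested in the fit over all genes. In that fit 27.8% of genes were called in CD44hi against naive and 21.9% in Treg against naive. By direction, 13.2% were higher and 14.5% lower in CD44hi, and 11.6% were higher and 10.3% lower in Treg. The split moved with the scaling. With normexp 1805 genes were higher and 3486 lower in CD44hi, against 2383 and 2615, and 1556 were higher and 3256 lower in Treg, against 2081 and 1860. In the authors' deposited values the counts were 2638 and 3579 in CD44hi and 2213 and 2682 in Treg. Among 13 tested partners of Gata1 and other GATA factors, 8 rose and 0 fell in CD44hi, and 3 rose and 1 fell in Treg, whereas Gata1 was lower in CD44hi. The 8 became 5 with no filter on dim probes, with the filter on all 8 arrays or without CD44hi replicate 1, and 4 without CD44hi replicate 2. Lyl1, a helix-loop-helix factor of blood progenitors, rose in Treg by 2.80 (SE 0.32, adjusted p = 0.00135) and in CD44hi by 1.20 (SE 0.32, adjusted p = 0.0323), the latter a call lost in 9 of 18 alternatives. Gfi1, a zinc-finger repressor, rose in both, by 1.64 and 0.97. Nfe2, a factor of erythroid and platelet genes, was at least 6.63-fold higher in CD44hi than in naive cells, where it was not well above background. Its log2 difference of 3.56 fell as low as 0.79 over 17 alternatives. Cbfa2t3, a co-repressor that joins Tal1 complexes, rose in CD44hi by 2.23 (SE 0.48, adjusted p = 0.0156), and Tal1 itself rose at least 1.16-fold, but with normexp the Tal1 difference turned to -0.18. Gata2, Gata5 and Zfpm2 were not well above background on any array.

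Among 23 tested genes of the TCF/LEF and beta-catenin pathway, 2 rose and 10 fell in CD44hi, and 1 rose and 6 fell in Treg. The 10 became 6 without either CD44hi array, and the 6 became 3 without Treg replicate 2, 10 without naive replicate 1 and 11 without naive replicate 2. Lef1, a TCF-family factor high in naive T cells, fell in CD44hi by 2.75 (SE 0.26) and in Treg by 2.35. Tcf7, the family member that keeps T cells in a naive or memory state, fell by 0.60 and 1.64. Tcf7l1 fell in CD44hi by 3.51 (SE 0.27, adjusted p = 0.000217), and its Treg difference was 0.05 (SE 0.27, adjusted p = 0.903). Of the 4 TCF/LEF factors, Tcf7l2 was the one with a positive Treg difference called in this fit, in the contrast that chose it, and that call was lost in 5 of 18 alternatives, among them normexp, quantile normalization, the mean of its probes and without either Treg array. The co-repressor Tle1 fell in CD44hi by 2.65 and in Treg by 0.81, and the Wnt receptor Fzd6, not above background in naive cells, was at least 2.14-fold higher in CD44hi and at least 5.33-fold higher in Treg. Over 17 alternatives the Fzd6 log2 difference fell as low as 0.11 in CD44hi and 0.78 in Treg. Its CD44hi call was lost with normexp and in the authors' deposited values.

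**Figure D5:**
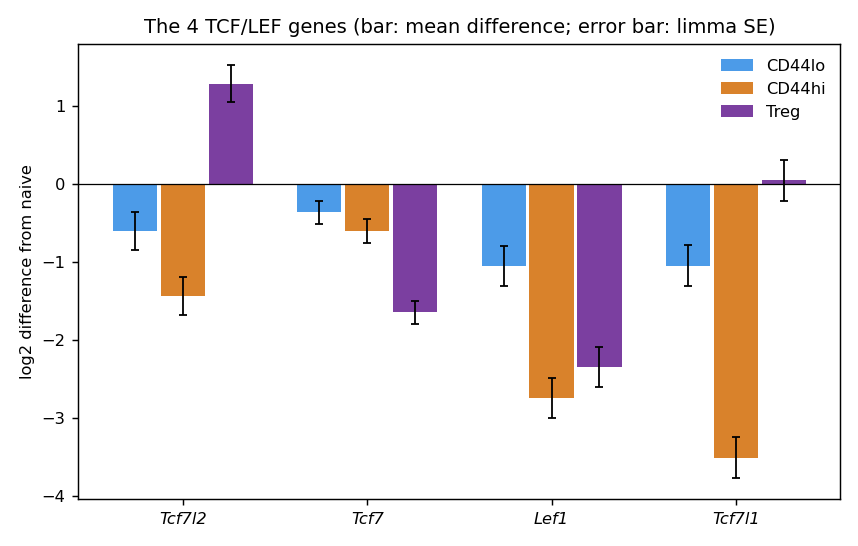
Log2 difference from naive for the 4 TCF/LEF transcription factors in CD44lo, CD44hi and Treg cells, with the SE of the limma fit as error bars (2 arrays a group). Tcf7 and Lef1 lie below 0 in all 3 groups, Tcf7l1 is near 0 in Treg, and Tcf7l2 is the one bar above 1 in Treg.

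Among 19 tested genes of the Toll-like receptor 7 pathway, 4 rose and 2 fell in CD44hi, and 6 rose and 1 fell in Treg. The 2 that fell in CD44hi became 0 without either CD44hi array, and the 1 that fell in Treg became 5 without naive replicate 1 and 0 without any 1 of the CD44lo, CD44hi or Treg arrays. Irf5, a transcription factor downstream of endosomal Toll-like receptors, rose in Treg by 3.74 (SE 0.29), in CD44hi by 2.89 and in CD44lo by 2.47 (adjusted p = 0.00407). Unc93b1, the chaperone that brings Tlr7 to endosomes, rose by 1.77 in Treg and by 1.99 in CD44hi. Irak2, a kinase of the Myd88 complex, rose in Treg by 1.14, and its CD44hi difference was 0.31 (adjusted p = 0.142). Tlr4 was at least 2.80-fold higher in CD44hi and at least 1.36-fold higher in Treg than in naive cells, where it was not above background, and with normexp its Treg difference turned to -0.05. Its CD44hi log2 difference fell as low as 0.37 over 17 alternatives, and with normexp that call was lost. Tlr9, the DNA sensor that shares this route, fell in Treg by 0.74 (adjusted p = 0.0319), and Tlr3 and Tlr8 were not above background on any array.

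Among 16 tested PP2C-type phosphatases and their kinase target Map3k5, 3 rose and 1 fell in CD44hi, and 3 rose in Treg. The 3 in CD44hi became 1 without CD44hi replicate 2 and 5 without naive replicate 1, and 4 fell in each group without naive replicate 1. Phlpp1, a phosphatase of Akt, rose in Treg by 1.71 (SE 0.15, adjusted p = 0.000474), with 0.39 in CD44hi (adjusted p = 0.102). Ppm1n rose by 1.47 in Treg and 1.01 in CD44hi, Phlpp2 by 1.09 in CD44hi, and Map3k5, the stress kinase also called ASK1, by 0.88 and 1.02. Among the 5 tested genes of the TRPM channels with Mitf, 2 rose and 2 fell in CD44hi, and 1 rose and 3 fell in Treg. Without either Treg array none of these Treg calls was left, with 0 higher and 0 lower. Mitf, the regulator of Trpm1 in melanocytes, fell in CD44hi by 1.31 (SE 0.16, adjusted p = 0.00154) and in Treg by 0.59 (adjusted p = 0.0427), a Treg call lost in 12 of 18 alternatives. Trpm7, a channel with a kinase domain, fell by 0.96 and 0.89, and Trpm6, its magnesium-transporting relative, was at least 5.79-fold higher in CD44hi than in naive cells. The Trpm6 log2 difference fell as low as 0.71 over 17 alternatives, and with normexp the call was lost. Trpm2 fell in CD44lo by 2.25 (adjusted p = 0.00295), but was above background on 1 naive and no CD44lo array. Zfp609, the relative of Zfp608, gave -0.35 in CD44hi and 0.34 in Treg (adjusted p = 0.274 and 0.278).

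Adgrb3, the receptor for C1ql3, was called lower in all 3 groups: naive exceeded CD44lo at least 2.39-fold, CD44hi at least 2.08-fold and Treg at least 2.68-fold. It was the one called gene of 5 tested C1q-like proteins and partners. Among 13 tested troponins, tropomyosins and other sarcomere genes, 1 rose and 2 fell in CD44hi, and 2 rose and 1 fell in Treg. The Treg count became 0 higher with normexp or without any 1 Treg or naive array, and 5 lower without naive replicate 1. The slow and fast skeletal troponins T fell where Tnnt2 did in CD44hi: Tnnt1 by 0.69 and Tnnt3 by 0.94. In Treg Tnnt1 fell by 1.01 (SE 0.15, adjusted p = 0.00474), and Tnnt3 gave -0.39 (adjusted p = 0.241). Tnni3, the cardiac troponin I, rose in Treg by 1.37 (adjusted p = 0.037), a call lost in 10 of 18 alternatives, and Myl7 was at least 1.26-fold higher in Treg and turned to -0.08 with normexp. Among 8 tested ADAMTS proteases, procollagens and partners, 3 rose and 0 fell in CD44hi, and 3 rose and 1 fell in Treg. The 3 in CD44hi became 1 with normexp. Vegfc, a substrate of the Adamts3 complex, was at least 28.1-fold higher in Treg, 2.85-fold in CD44hi and 3.71-fold in CD44lo than in naive cells, where it was not above background. These bounds hold only for the main processing. Over 17 alternatives the Vegfc log2 difference fell as low as 2.77 in Treg, 0.47 in CD44hi and 0.66 in CD44lo. With normexp its CD44hi and CD44lo calls were lost. Col1a1, a procollagen chain, was at least 3.39-fold higher in Treg and 4.52-fold in CD44hi, and Adamts6 rose by 2.06 in Treg and 0.64 in CD44hi. The Col1a1 log2 differences fell as low as 0.26 and 0.52 over 17 alternatives, and with normexp both calls were lost. Adamts5 was called lower in Treg, where neither it nor the naive signal was above background.

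Several of the 9 genes are better known from other cell types, so markers of those types were read on the same arrays. Rhag, an erythroid membrane protein, was not well above background on any array. The summed signal of 11 erythroid markers ranged from 47.4% to 66.9% of the 75th percentile on naive arrays, 52.4% to 76.1% on CD44hi arrays and 34.1% to 72.9% on Treg arrays, so the groups overlapped. Of 9 erythroid markers tested, 3 rose in CD44hi and 1 in Treg. Epor, the erythropoietin receptor, rose in CD44hi by 1.11 and Hemgn, a nuclear protein of red-cell precursors, was at least 3.23-fold higher there. Their log2 differences fell as low as 0.35 and 0.21 over the alternatives, and with normexp both calls were lost. The 12 megakaryocyte and platelet markers summed to 39.8% to 49.4% on naive, 32.9% to 43.6% on CD44hi and 32.6% to 33.1% on Treg arrays, with Gp9 at background on every array. The 13 mast cell, basophil and eosinophil markers summed to 73.9% to 81.5%, 63.3% to 65.3% and 54.0% to 67.8%, and Ms4a2 and Il5ra were at background throughout. The part of these cell types in the Gata1 differences was not tested.

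The sum of 10 plasmacytoid dendritic cell markers was 2136% to 2504% on naive, 2056% to 2094% on CD44hi and 2429% to 2502% on Treg arrays, so Treg and naive overlapped. Of 9 tested, 3 rose and 1 fell in Treg. Runx2, a transcription factor with the largest change of the list, rose by 6.13 in CD44hi and by 5.01 in Treg. Ly6d and Ccr9 rose in Treg by 2.39 and 1.87, and Lair1, an inhibitory receptor, fell in Treg by 1.73. The sum of 10 B cell markers was 27.2% to 47.0% on naive, 159% to 234% on CD44lo, 359% to 419% on CD44hi and 426% to 450% on Treg arrays, with Fcer2a at background on every array. Of 9 tested, 5 rose in CD44hi and 4 in Treg. Cd79b, a chain of the B cell receptor, rose by 2.78 in CD44hi and 4.40 in Treg. Cd22 went the other way, with 8.12 in CD44hi and 5.72 in Treg. Ms4a1 gave 2.69 and 2.82, and Pax5 gave 2.79 in CD44hi. None of Cd22, Ms4a1 and Pax5 was well above background on all 8 arrays, so these sizes are estimates. The B cell sum was above that of naive arrays in CD44lo, CD44hi and Treg alike. The part of these markers in the Tlr7 differences was not tested.

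The genes whose 8 array values most resembled those of each member were ranked by Pearson's r over the arrays, which share the group structure that chose the members. For Gata1 they were Ppm1l (r = 0.988), Pakap (0.986) and Ppp1r3f (0.986), the last a regulatory subunit of protein phosphatase 1. For Ppm1l they were Igtp (0.996), an interferon-induced GTPase, Rims3 and Mxd1 (both 0.991). Tlr7 was closest to Rims3 (0.998), Psd2 (0.989) and Eif4e3 (0.988). Rims3 differed from naive by 0.70 in Treg and -0.85 in CD44hi.

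For Trpm1 the list was Acadsb (0.993), Cdk19 (0.992) and Spin2c (0.990), and for Zfp608 it was Ift80 (0.990), Ppm1l (0.990) and Cdkn1c (0.988), a cell-cycle inhibitor. Tcf7l2 was closest to Wdr78 (0.994), Tfrc (0.990), the transferrin receptor, and Rpap3 (0.986). C1ql3 was closest to the folate carrier Slc19a1 (0.984), Tasp1 (0.979) and Car12 (0.977), and Tnnt2 to Kcnip2 (0.989), Gata1 (0.980) and Pip5k1b (0.975). Pip5k1b, a phosphoinositide kinase, differed by 2.33 in Treg and -0.82 in CD44hi. Adamts3 was closest to Tmlhe (0.983), Tmem39b (0.983) and Coro7 (0.973), a coronin, which differed by -0.39 in Treg and 0.23 in CD44hi. Members appeared among each other's nearest genes in 3 of the 27 places.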

How the data were processed

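Per the file headers, Feature Extraction 9.5.1.1 (Agilent) made the 8 scanner tables. Their deposited spot signals are intensity values, background-subtracted and not normalized between arrays, and the deposited flags of a spot being well above background, saturated or an outlier were used as given. The deposited value table holds log2 values that the authors made (column medians 6.86 to 6.88), whose normalization is not given in the sources used here. The submitters' processing notes name limma, with no version.

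Spots flagged as outliers were dropped unless a probe had no other, the log2 processed signals of a probe were averaged, and the 75th percentile of 41174 non-control probes was subtracted from each array. A gene was represented by its brightest probe and tested if, in 1 group or more, both arrays had that probe well above background (17996 genes). Probes were renamed through RefSeq tables by accession (22935), symbol (6673) or older symbol (3108), and 8458 kept the file's name. limma 3.58.1 (R 4.3.3) fitted the 4 groups with no block, p-values were adjusted by Benjamini-Hochberg over all genes tested, and a gene was called at an adjusted p under 0.05. The procedure was tested on simulated data. The precision is limited by 2 arrays a group.

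The named genes were the 9 members, the 3 genes most like each by Pearson's r, the 5 leading oppositely called genes in each direction, and at most 4 called genes a list with the largest change. Gfi1, Tcf7, Tlr9, Zfp609 and Cd44 were named beyond that rule after their values were seen. The members and the lists were chosen with earlier results of these data known. The alternatives tried were normexp background correction (offset 50), quantile normalization, the deposited value table, 2 other filters on dim probes, the mean of a gene's probes, an intensity trend, replicate and slide blocks, fewer groups in the fit and leaving out each array. Deviations of same-numbered arrays from their group means correlated by 0.06 to 0.33, and the naive and Treg pair fell below 0.1, so the numbers were not taken to pair the samples.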

Additional observations from a re-analysis of the deposited data

How the results depend on the processing

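No Treg or CD44hi difference of the 9 genes changed sign under any alternative that gave a value, but sizes and calls did change, as given beside C1ql3, Tnnt2, Trpm1, Tcf7l2, Zfp608, Ppm1l and Adamts3. Those of Gata1 and Tlr7 stayed within 1.5 times. Calls counted over the alternatives for any of the 9 genes in Treg or CD44hi concern the contrasts that chose them, and are no test. The filter that asks for all 8 arrays to be well above background left out C1ql3, Tnnt2, Trpm1 and Adamts3. With no filter on dim probes limma called 606, 3129 and 2301 genes in CD44lo, CD44hi and Treg against naive and 28 in opposite directions. With the filter on all 8 arrays it called 621 in CD44lo. With only the groups compared it called 2610 in CD44hi and 2522 in Treg, and with only naive, CD44hi and Treg 39 in opposite directions. Leaving out 1 array gave 506 to 7191 genes in CD44lo, 2594 to 9231 in CD44hi, 1789 to 9200 in Treg, 32 to 121 in opposite directions, and 0 to 1 of the 9 genes in CD44lo. The highest counts came without naive replicate 1. The lowest were without CD44lo replicate 2, CD44hi replicate 2, Treg replicate 2 and, for opposite directions, Treg replicate 1. The cause was not tested.

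The CD44lo differences near 0 turned sign. With normexp they were 0.044 for Ppm1l, -0.25 for C1ql3, -0.015 for Tnnt2 and -0.26 for Adamts3. With quantile normalization C1ql3 gave -0.18 and Adamts3 -0.17, and in the authors' deposited values C1ql3 gave -0.12. With the mean of a gene's probes Ppm1l gave 0.15, C1ql3 -0.23 and Adamts3 -0.23. With 1 array left out they ranged from -0.30 to 0.29 for Ppm1l, from -0.43 to 0.43 for C1ql3 and from -0.058 to 0.059 for Adamts3. None of these differences was called.

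The replicate block gave 1196, 5397 and 4205 genes in CD44lo, CD44hi and Treg, 91 in opposite directions and 0 of the 9 genes in CD44lo, so it changed no call on them. The slide block gave 792, 4509, 3364, 60 and 0. The authors' deposited values moved the median Treg difference of all genes from -0.20 to -0.10. The list counts were recomputed under the same alternatives, chosen after seeing the data, and weak CD44lo calls among list genes were often lost, that of Ppm1n in 12 of 18. With 2 arrays a group, the 95% intervals of the members in CD44lo reached as low as -1.41 (C1ql3) and as high as 1.97 (Tnnt2).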
